A study of Mus musculus with 2 samples.

Results

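The actins and alpha-actinins described here are 10 genes of mouse gastrocnemius, the large muscle of the calf: the actins Acta1, Actc1, Acta2, Actb, Actg1 and Actg2, and the alpha-actinins Actn1, Actn2, Actn3 and Actn4. They were taken by name from the gene families, with no threshold on a measured value, and are 10 of the 55450 annotated genes in the deposited gene tables. The series holds 1 group of 2 total RNA libraries, replicate 2 and replicate 1, from male mice of the strain B6CASTF1/J, a cross of C57BL/6J and CAST/EiJ. Both libraries started from 300 ng of RNA to which ERCC spike-ins, synthetic control RNAs, were added, and no treatment or engineered allele is named for either. The description gives 18 to 20 months, whereas the age field of both is set to unknown. The labels number the replicates and the males differently but attach the same donor record to both, so SDs measure only the spread between these libraries, which may be technical. With 1 group there is no comparison between conditions, and each difference is that of replicate 2 against replicate 1.

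Actin polymerises into the thin filaments that myosin pulls on in muscle and into the filaments that shape and move other cells. Alpha-actinin is a rod-shaped dimer that crosslinks actin filaments. In striated muscle it anchors the thin filaments of neighbouring sarcomeres at the Z-disc, and in other cells it joins actin bundles to adhesion sites. Acta1 encodes the skeletal muscle actin and Actc1 the cardiac one, which is also made in developing skeletal muscle. Acta2 and Actg2 encode the smooth muscle actins of vessels and of the gut, and Actb and Actg1 the cytoplasmic actins. Actn2 and Actn3 encode the sarcomeric alpha-actinins, of which Actn3 is known from fast glycolytic fibres and Actn2 from all striated fibres, whereas Actn1 and Actn4 encode the forms of non-muscle and smooth muscle cells.

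The coding sequences of the 6 actins are close enough that reads from one could be taken for another, so the start of each is shown. These are the first 60 coding bases of the main transcript, the longest with a coding sequence (GENCODE M21, mm10, all on the minus strand), and capitals mark bases that differ from the Acta1 base opposite them in a global alignment with gaps allowed.
Acta1: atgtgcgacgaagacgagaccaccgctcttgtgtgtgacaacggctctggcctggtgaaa
Actc1: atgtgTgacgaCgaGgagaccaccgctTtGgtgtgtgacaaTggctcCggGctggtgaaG
Acta2: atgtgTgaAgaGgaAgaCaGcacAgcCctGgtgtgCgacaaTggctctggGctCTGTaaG
Actg2: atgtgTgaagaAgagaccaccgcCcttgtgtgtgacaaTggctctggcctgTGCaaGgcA
Actb: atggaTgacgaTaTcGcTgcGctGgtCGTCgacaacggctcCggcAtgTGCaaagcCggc
Actg1: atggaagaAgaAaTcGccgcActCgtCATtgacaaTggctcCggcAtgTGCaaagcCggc
These stretches lie at chr8:123893638-123893697 for Acta1, chr2:114051972-114052031 for Actc1, chr19:34252494-34252553 for Acta2. They lie at chr6:83527382-83527441 for Actg2, chr5:142905627-142905686 for Actb and chr11:120348032-120348091 for Actg1. Over the whole coding sequence without the stop codon, Actb and Actg1 were the closest pair, identical at 88.6% of aligned bases, and Acta1 and Actc1 followed at 86.3%. The most distant actins were Acta2 and Actg1 at 82.0%. The alpha-actinins lay further apart, with 80.5% identity between Actn1 and Actn4 and 74.6% between Actn3 and Actn4. No stretch of 100 nt in the main transcript of any member occurred in a transcript of another member.

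The alpha-actinin genes differ in an exon of the calcium-binding region near the end of the protein, which comes in a 66-nt form, known from muscle, and an 81-nt form, known from non-muscle cells. In the annotation Actn2 and Actn3 carried the 66-nt form alone, and Actn1 and Actn4 carried either. The exons are shown because they separate the forms measured below. Capitals mark the bases that differ from Actn2 in the 66-nt exons and from Actn1 in the 81-nt exons.
Actn2 66-nt exon: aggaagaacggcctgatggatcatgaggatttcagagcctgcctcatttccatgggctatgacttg
Actn3 66-nt exon: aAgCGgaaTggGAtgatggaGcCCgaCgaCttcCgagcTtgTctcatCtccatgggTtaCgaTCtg
Actn1 66-nt exon: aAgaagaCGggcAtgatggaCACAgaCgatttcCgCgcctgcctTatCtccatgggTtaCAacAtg
Actn4 66-nt exon: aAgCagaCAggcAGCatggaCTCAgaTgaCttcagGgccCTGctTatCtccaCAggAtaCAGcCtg
Actn1 81-nt exon: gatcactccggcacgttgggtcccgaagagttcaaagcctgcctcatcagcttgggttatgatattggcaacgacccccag
Actn4 81-nt exon: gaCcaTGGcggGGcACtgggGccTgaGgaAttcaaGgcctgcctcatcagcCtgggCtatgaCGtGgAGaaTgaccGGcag
The Actn2 exon lies at chr13:12272699-12272764 and the Actn3 exon at chr19:4862170-4862235. The Actn1 exons lie at chr12:80170183-80170248 for the 66-nt form and chr12:80170686-80170766 for the 81-nt form. Those of Actn4 lie at chr7:28895121-28895186 for the 66-nt form and chr7:28895432-28895512 for the 81-nt form. The 66-nt exons of Actn3, Actn1 and Actn4 differed from that of Actn2 at 19, 17 and 26 bases, and the 81-nt exon of Actn4 differed from that of Actn1 at 23 bases.

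Replicate 2 held 44919441 expected counts and replicate 1 held 40795740. Expected counts are reads per gene, with reads that match several genes shared out, and TPM, the usual measure of transcript abundance, is the count per effective transcript length scaled to a fixed library total, which makes levels of different genes comparable. TPM of the first quantification, the deposited gene table, is used unless the second is named. Each mean ± SD is over n = 2 libraries. Fast-fibre markers summed to 72917 TPM in replicate 2 and 92997 TPM in replicate 1, with 9 of 9 genes above the count filter.

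The 10 genes differed widely in level. Acta1 and Actn3 stood first and second in both libraries and Actn1 and Actg2 stood last. Acta1 (chr8:123891769-123894751) had 18065 TPM in replicate 2 and 20725 TPM in replicate 1, a mean of 19395 ± 1881 TPM (SD, n = 2). It ranked 1 in replicate 2 and 2 in replicate 1 among the 21938 nuclear protein-coding genes. Actn3 (chr19:4861216-4877909) had 3202 TPM in replicate 2 and 4664 TPM in replicate 1 (mean 3933 ± 1034, SD, n = 2), and ranked 14 and 13 among the same genes. Of the 10 genes, Actn2 overlapped in range with Actb and Actg1, and Actc1 overlapped with Acta2 and Actn4. The libraries of all other neighbours in the order did not overlap.

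**Figure D1:**
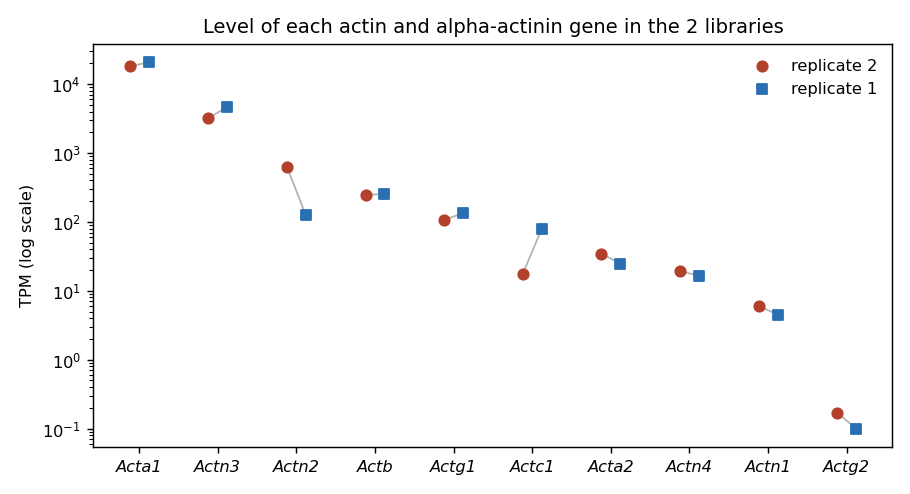
Level of each gene in TPM on a log axis, ordered by the mean of both libraries, with replicate 2 as circles to the left and replicate 1 as squares to the right, joined by a line. Acta1 and Actn3 lie above the other 8 genes in both libraries, and the lines of Actn2 and Actc1 are the steepest, in opposite directions.

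The sarcomeric actins were Acta1 and, far below it, Actc1. Acta1 made up 97.8% of the TPM of the 6 actins in replicate 2 and 97.7% in replicate 1 (mean 97.7% ± 0.097, SD, n = 2). Its counts were 837452 in replicate 2 and 877224 in replicate 1, a replicate 2 over replicate 1 ratio of 0.841 after TMM scaling, a correction of library size by the bulk of the genes. The 95% counting interval (exact Clopper-Pearson) at that depth ran from 0.838 to 0.843. Actc1 (chr2:114047282-114053548) had 17.7 TPM in replicate 2 and 79.0 TPM in replicate 1 (mean 48.3 ± 43.4, SD, n = 2). Its counts of 839 in replicate 2 and 3426 in replicate 1 made it 4.64-fold higher in replicate 1, with a 95% counting interval of 4.30 to 5.01. The ratio of Acta1 to Actc1 in TPM was 1023 in replicate 2 and 262 in replicate 1.

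The test of each gene was a 2-sided exact binomial test of its counts, with Benjamini-Hochberg adjustment across the 14958 genes whose counts averaged 10 or more. Calling required an adjusted p below 0.05 together with a difference of 2-fold or more. This test holds counting error only, so it compares these 2 libraries and not animals or conditions. Of the 9 members tested, 2 were called, against 6.05% of all genes tested. Actn2 was called higher in replicate 2, where 4.41% of all genes were called higher, and Actc1 was called higher in replicate 1, where 1.64% were. The adjusted p of both was below the smallest number the computation could hold. The other 7 were not called, although all 9 had an adjusted p below 0.05, as 34.9% of all genes tested did. Of the 9, 4 had a log2 ratio above 0 and 5 below, with a median of -0.07, against a median of 0.01 over all genes tested.

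**Figure D2:**
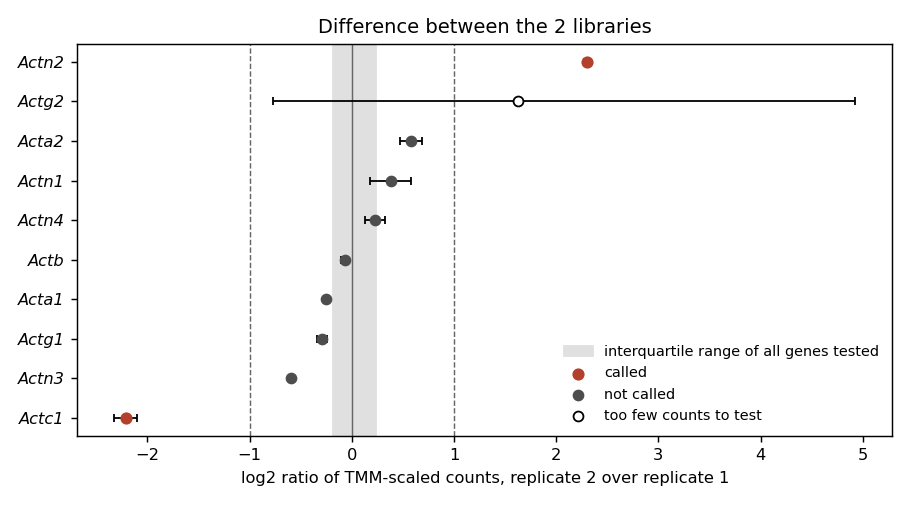
Log2 ratio of TMM-scaled counts, replicate 2 over replicate 1, for each gene, with 95% counting intervals as bars, dashed lines at a 2-fold difference and the interquartile range of all genes tested in grey. Actn2 lies right of the upper dashed line at 2.30 and Actc1 left of the lower one at -2.21, and the open circle of Actg2, which was not tested, has the widest interval.

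Immature-fibre markers were set beside Actc1, since the cardiac actin is made in developing muscle. Of their 6 genes 5 were tested, and the called ones moved in opposite directions. Over all genes tested, 6.05% were called in either direction. Myog, a transcription factor of differentiating muscle, had 4.39 TPM in replicate 2 and 12.4 TPM in replicate 1 and was called higher in replicate 1. Myh3, the embryonic myosin heavy chain, had 6.69 TPM in replicate 2 and 3.01 TPM in replicate 1 and was called higher in replicate 2. Myh8, the perinatal myosin heavy chain, was not called at 108 TPM in replicate 2 and 159 TPM in replicate 1. The list summed to 126 TPM in replicate 2 and 181 TPM in replicate 1, and none of its genes was at 0 in both libraries. Of 6 cardiac genes, Nppa, Nppb and Myl7 were at 0 counts in both libraries, and the list summed to 77.4 TPM in replicate 2 and 8.43 TPM in replicate 1, of which Myh6, a cardiac myosin heavy chain, had 73.2 and 5.88 TPM and was called higher in replicate 2. The expected counts of Myh6, 3346.47 and 257.57, are fractional, so some of its reads were shared out with other genes. Myl4, an atrial myosin light chain, had 4.09 TPM in replicate 2 and 2.46 TPM in replicate 1 and was not called. Their part in the difference of Actc1 was not tested.

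The sarcomeric alpha-actinins were Actn3 and Actn2, and their balance differed between the libraries. Actn2 (chr13:12269426-12340760) had 630 TPM in replicate 2 and 125 TPM in replicate 1 (mean 377 ± 357, SD, n = 2). Its counts were 61594 in replicate 2 and 11008 in replicate 1, and it was 4.93-fold higher in replicate 2 (interval 4.83 to 5.03). Actn3 had 272536 counts in replicate 2 and 362896 in replicate 1, a ratio of 0.661 (interval 0.658 to 0.665), which did not reach 2-fold. Actn3 made up 83.0% of the TPM of the 4 alpha-actinins in replicate 2 and 97.0% in replicate 1 (mean 90.0% ± 9.87, SD, n = 2). Actn2 made up 16.3% in replicate 2 and 2.59% in replicate 1. The ratio of Actn3 to Actn2 in TPM was 5.09 in replicate 2 and 37.5 in replicate 1. Actn2 ranked 62 among nuclear protein-coding genes in replicate 2 and 407 in replicate 1.

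Slow-fibre markers moved with Actn2. All 9 of the list were called higher in replicate 2, against 4.41% of all genes tested. Their differences ran from 6.92-fold for the tropomyosin Tpm3 up to 28.3-fold for Csrp3, a Z-disc LIM protein, with a median log2 ratio of 3.39. The most abundant were the myosin light chains Myl2, at 564 TPM in replicate 2 and 40.02 TPM in replicate 1, and Myl3, at 363 and 36.5 TPM. The myosin heavy chain Myh7, the troponins Tnnt1, Tnni1 and Tnnc1 and the calcium pump Atp2a2 were higher by 9.95-fold, 11.5-fold, 13.9-fold, 10.5-fold and 7.06-fold. The list summed to 2528 TPM in replicate 2 and 228 TPM in replicate 1. The ratio of Actn2 was below that of each of these 9 genes. Of the 9 fast-fibre markers, Myh2 and Myh1, the myosin heavy chains of fast oxidative and intermediate fibres, were called higher in replicate 2, by 3.72-fold and 2.20-fold. The other 7 were not called, with ratios of 0.630 for Myl1 to 0.869 for Tnnc2, and Actn3 lay in that range at 0.661. The most abundant of them, the troponin Tnnt3 and the fast glycolytic myosin Myh4, had 15168 and 11005 TPM in replicate 2 and 18401 and 15964 TPM in replicate 1. In bulk muscle, fewer cells of a type and less RNA per cell cannot be told apart, and the part of fibre composition in the difference of Actn2 was not tested.

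Of the cytoplasmic actins, Actb had the log2 ratio nearest to 0 among the 9 members tested, with TMM scaling. Actb (chr5:142903115-142906754) had 246 TPM in replicate 2 and 256 TPM in replicate 1 (mean 251 ± 7.37, SD, n = 2), a count ratio of 0.954 with an interval of 0.931 to 0.978. The order of its libraries depended on the scaling, since with spike-in scaling the log2 ratio of -0.07 became 0.16. With spike-in scaling Acta1, at -0.03, and Actg1, at -0.07, lay nearer to 0 than Actb. Actg1 (chr11:120345690-120348542) had 107 TPM in replicate 2 and 134 TPM in replicate 1 (mean 120 ± 19.4, SD), a count ratio of 0.815 with an adjusted p of 4.97e-29 in the binomial test. Actb exceeded Actg1 by 2.31-fold in replicate 2 and 1.91-fold in replicate 1, on the TPM scale. The pair made up 1.33% and 0.577% of actin TPM in replicate 2, and 1.21% and 0.632% in replicate 1.

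Actg1 is the member with the most sequence in common with other genes. Of the 1853 windows of 100 nt in its main transcript, 946 (51.1%) occurred unchanged in a transcript of another gene, and 91.9% of the windows within its coding sequence did. The other genes were 6 processed pseudogenes, of which Gm12715 shared 823 windows and Gm8399 shared 327. Gm8399 was given 410 counts in replicate 2 and 364 in replicate 1, beside 6068 and 6553 for Actg1, so these counts are uncertain. Actg-ps1, which shared 89 windows, was given 32.1 and 23.0 counts. In Actb 20 of 1821 windows (1.10%) were shared, with Gm15725 and Lrrc58, and the other 8 members shared none. The deposited posterior SD of the count, a measure of how freely reads could be moved between genes, was 14.1 for Actg1 in replicate 2 and 12.4 in replicate 1. It was 2.69 and 2.74 for Actb, 0.23 in both libraries for Acta1, and 0 for the other 7.

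The smooth muscle actins were minor. Acta2 (chr19:34241090-34255590), the actin of vessel walls, had 34.6 TPM in replicate 2 and 24.8 TPM in replicate 1 (mean 29.7 ± 6.97, SD, n = 2). Its 1969 counts in replicate 2 and 1162 in replicate 1 gave a ratio of 1.49 (interval 1.39 to 1.61, binomial adjusted p = 1.17e-26), below the 2-fold limit. In TPM the libraries stood closer than in counts, since the effective length given to Acta2 was 1644 nt in replicate 2 and 1486 nt in replicate 1. Actg2 (chr6:83512905-83536265) had 7 counts in replicate 2 and 2 counts in replicate 1, or 0.17 and 0.10 TPM. It fell under the count filter and was not tested, and its ratio of 3.08 had a counting interval of 0.587 to 30.4. A difference in Actg2 was not detectable at this depth.

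Of 7 smooth muscle markers, Cnn1, a calponin that binds actin, was called higher in replicate 2 at 2.72 TPM there and 0.99 TPM in replicate 1. Over all genes tested, 4.41% were called higher in replicate 2. The median log2 ratio of the smooth muscle list was 0.43, with 6 of 7 above 0, and it summed to 116 TPM in replicate 2 and 97.7 TPM in replicate 1. The most abundant, Smtn and Myl9, were not called, at 37.8 and 25.7 TPM in replicate 2 and 41.0 and 19.4 TPM in replicate 1. Of 6 pericyte markers, the potassium channel gene Kcnj8 was called higher in replicate 2, at 3.12 TPM there and 1.30 TPM in replicate 1, and the median was again 0.43. Rgs5 and Abcc9, the most abundant, had 79.2 and 50.8 TPM in replicate 2 and 59.6 and 60.01 TPM in replicate 1, and the list summed to 146 and 130 TPM. The log2 ratio of Acta2, 0.58, was above both medians but within the range of each list. Of the smooth muscle markers, Cnn1 at 1.00, Tagln at 0.71 and Myh11 at 0.60 lay above it. Lmod1 at 0.43, Myl9 at 0.25, Mylk at 0.21 and Smtn at -0.13 lay below it. The pericyte markers ran from -0.31 for Abcc9 to 1.16 for Kcnj8. The part of vessel cells in the difference of Acta2 was not tested.

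The non-muscle alpha-actinins were Actn4 and Actn1. Actn4 (chr7:28893248-28962340) had 19.4 TPM in replicate 2 and 16.5 TPM in replicate 1 (mean 18.0 ± 2.04, SD, n = 2), a count ratio of 1.17 with a binomial adjusted p of 2.08e-05. Actn1 (chr12:80167547-80260371) had 6.05 TPM in replicate 2 and 4.51 TPM in replicate 1 (mean 5.28 ± 1.09), from 516 and 349 counts, a ratio of 1.30 with an interval of 1.13 to 1.50. Neither reached 2-fold. Actn4 exceeded Actn1 by 3.21-fold in replicate 2 and 3.67-fold in replicate 1. They were minor among alpha-actinin TPM, at 0.503% and 0.157% in replicate 2 and 0.344% and 0.094% in replicate 1. The 6 endothelial genes summed to 56.3 TPM in replicate 2 and 38.1 TPM in replicate 1, with Kdr and Cldn5 called higher in replicate 2 by 2.12-fold and 2.17-fold and the most abundant, Cdh5 and Pecam1, not called at 17.0 and 14.9 TPM in replicate 2 and 13.2 and 9.25 TPM in replicate 1. Over all genes tested 6.05% were called. At that share lists of 5 or 6 genes would hold few calls or none, so an absence of calls does not set a list apart. None of 6 fibroblast genes was called, with Dcn at 159 TPM in replicate 2 and 139 TPM in replicate 1 and Col3a1 at 30.5 and 48.2 TPM, a list sum of 266 and 284 TPM. None of 5 macrophage genes was called, with C1qa at 6.42 TPM in replicate 2 and 5.22 TPM in replicate 1 and Csf1r at 5.21 and 4.83 TPM, a list sum of 17.1 and 15.4 TPM. The part of these cells in the levels of the cytoplasmic actins and non-muscle alpha-actinins was not tested.

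By family, the 6 actins summed to 18469 TPM in replicate 2 and 21219 TPM in replicate 1, or 4.22% and 4.63% of the TPM of nuclear protein-coding genes. The 4 alpha-actinins summed to 3857 TPM in replicate 2 and 4809 TPM in replicate 1, or 0.881% and 1.05%. Actin exceeded alpha-actinin transcripts by 4.79-fold in replicate 2 and 4.41-fold in replicate 1 (mean 4.60 ± 0.266, SD, n = 2). The corresponding ratio of sarcomeric genes, Acta1 over the sum of Actn2 and Actn3, was 4.71 in replicate 2 and 4.33 in replicate 1. Each of these ratios was 1.09-fold higher in replicate 2, whereas the ratio of Actn3 to Actn2 was 7.37-fold higher in replicate 1. The median log2 ratio was -0.25 over the 5 actins tested, with 1 above 0, and 0.30 over the 4 alpha-actinins, with 3 above 0.

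The alternative exon set Actn1 and Actn4 apart from each other and, by annotation, from the sarcomeric pair. Of the Actn1 transcripts with either form, those with the 66-nt exon took 32.0% of TPM in replicate 2 and 36.1% in replicate 1 (mean 34.1% ± 2.91, SD, n = 2). The second quantification gave 34.0% in replicate 2 and 31.9% in replicate 1, so the order of the libraries turned round. In Actn4 the 66-nt form took 6.36% in replicate 2 and 4.64% in replicate 1 (mean 5.50% ± 1.21), and 4.11% and 3.17% in the second quantification. For Actn2 and Actn3 the share was 100% by construction, since the annotation holds no 81-nt form for either gene. The 66-nt form rested on 1 transcript in each of Actn1 and Actn4, with 121 and 46.0 expected counts in replicate 2 and 87.7 and 25.5 in replicate 1. Those transcripts differ from the 81-nt ones also outside the exon, so the shares are not counts of the exon itself.

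**Figure D3:**
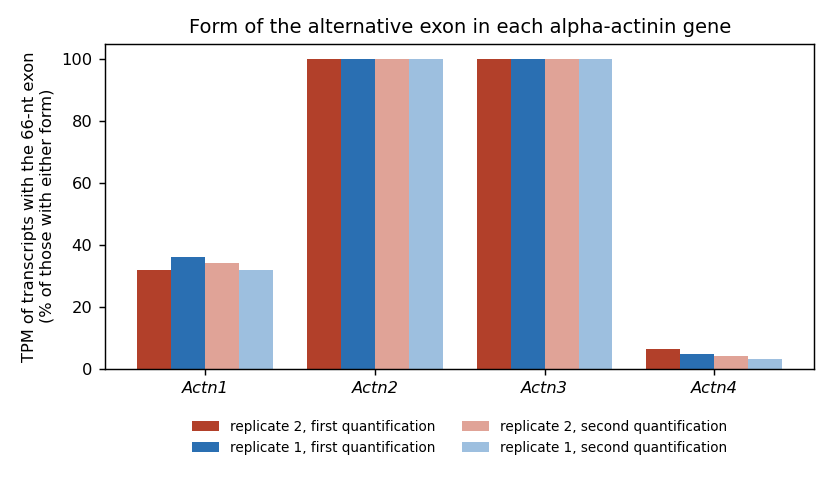
Share of TPM of the transcripts with the 66-nt exon among those with either form, in percent, for each alpha-actinin gene, with replicate 2 left of replicate 1 within each quantification. Actn2 and Actn3 stand at 100%, Actn1 between 31.9% and 36.1%, and Actn4 at or below 6.36%.

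The 10 genes had 55 annotated transcripts, of which 33 were protein-coding and 13 retained introns, and 30 took at least 5% of their gene in a library of either quantification. The first quantification came from reads aligned to the transcriptome and the second directly from the reads. The transcript with the largest share was the same in both libraries and both quantifications for 9 of 10 genes, all but Actg2. The shares themselves differed. In Acta1 the transcript Acta1-202, of 616 nt in 4 exons with 90 nt outside the main transcript Acta1-201, took 0.77% in replicate 2 and 0.76% in replicate 1 in the first quantification. In the second it took 45.0% in replicate 2 and 44.7% in replicate 1. These are shares of TPM, which weigh a short transcript more than its reads do. Of the counts of the gene, Acta1-202 took 0.297% and 0.292% in the first quantification and 16.7% in both libraries in the second. In Actn3 the direction was opposite. Actn3-202, a retained-intron transcript of 982 nt with 14 nt outside the main one, took 17.1% and 17.0% in replicates 2 and 1 in the first quantification and 0% in both in the second. Of the counts of the gene it took 6.15% and 6.08% in the first. These differences in TPM share between quantifications far exceeded the spread between libraries, which was 0.008 (SD, n = 2) in percentage points for Acta1-202 and 0.127 for Actn3-202 in the first quantification.

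The second over first ratio of the gene count was 0.996 in replicate 2 and 1.00 in replicate 1 for Acta1. It reached 1.11 and 1.13 for Acta2 and 1.11 in both libraries for Actn4, and Actg2 had 21.04 counts in replicate 2 and 10.01 in replicate 1 in the second quantification, against 7 and 2 in the first. The TPM ratios of Acta1 were 2.01 in replicate 2 and 2.14 in replicate 1, with levels of 36390 TPM and 44349 TPM in the second quantification. The 616-nt Acta1-202 held 16358 TPM and 19835 TPM of these, against 139 TPM and 157 TPM in the first. The share of TPM on nuclear protein-coding genes was 43.8% in replicate 2 and 45.8% in replicate 1 by the first quantification, and 63.5% and 71.1% in the second. On the TPM of these genes alone the ratio for Acta1 was 1.39 in replicate 2 and 1.38 in replicate 1, and for Actn3 it was 0.731 and 0.730. The ratio of Acta1 to Actn3 was 5.64 in replicate 2 and 4.44 in replicate 1 in the first quantification, and 10.7 and 8.40 in the second. This ratio differed more between the quantifications than between the libraries.

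**Figure D4:**
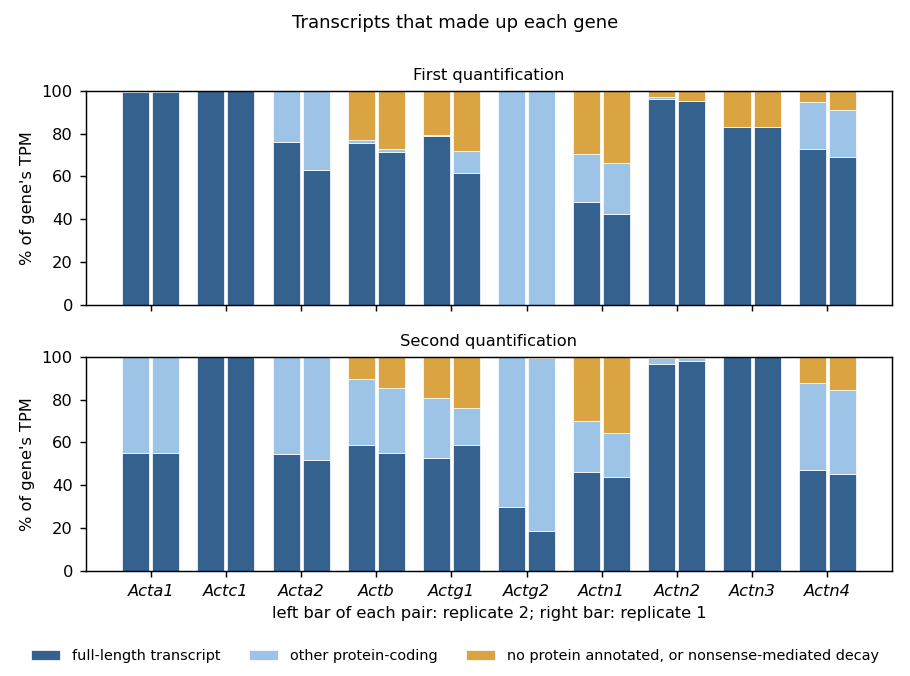
Share of each gene's TPM, in percent, taken by its main full-length transcript, by other protein-coding transcripts and by transcripts with no annotated protein or marked for nonsense-mediated decay, with replicate 2 as the left and replicate 1 as the right bar of each pair. The light segment of Acta1 is visible in the lower panel alone (45.0% and 44.7%), and the yellow segment of Actn3 in the upper panel alone.

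The transcripts of the other actins were also divided differently. Acta2-202, a shorter protein-coding transcript, took 24.2% in replicate 2 and 37.2% in replicate 1 in the first quantification, and 45.4% and 48.1% in the second. In Actb, the non-coding Actb-206 took 20.6% in replicate 2 and 23.2% in replicate 1, against 8.40% and 11.2% in the second quantification. Actb-208 took 1.20% and 1.41% in the first and 24.4% and 20.9% in the second, and Actb-202 took 0% in the first and 6.67% and 9.56% in the second. In Actg1, the transcript Actg1-206, which is marked for nonsense-mediated decay, was close between quantifications, at 9.99% in replicate 2 and 14.8% in replicate 1 and then at 10.1% and 13.6%. The retained-intron Actg1-207 took 6.36% and 6.06%, and then 6.66% and 6.42%. Actg1-205 took 0.507% and 1.48% in the first and 16.9% and 16.4% in the second, and Actg1-204 took 0% and 8.74% in the first and 9.98% and 0.753% in the second. Actc1 was carried by Actc1-201 alone, at 100% throughout. For Actg2, with its 7 and 2 counts, Actg2-202 took 100% in replicate 2 and Actg2-206 took 100% in replicate 1 in the first quantification, and Actg2-205 led in the second at 69.9% and 80.7%, followed by Actg2-201 at 30.1% and 18.6%.

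In Actn2, transcript shares were close between quantifications. Actn2-201 took 95.9% in replicate 2 and 95.3% in replicate 1 in the first quantification, and 96.7% and 97.9% in the second. In Actn1, the full-length Actn1-201 took 47.8% in replicate 2 and 42.4% in replicate 1, and Actn1-202, which carries the 66-nt exon, took 22.5% and 23.9%. The non-coding Actn1-207 was given 23.8% in replicate 2 and 0% in replicate 1, and the non-coding Actn1-204 was given 4.64% and 30.6%. The second quantification gave Actn1-207 22.0% and 0%, and Actn1-204 7.23% and 32.1%. It used the same reads, so it is not independent support for this difference between libraries. The difference rests on few reads. In the first quantification Actn1-207 had 20.3 expected counts in replicate 2 and 0 in replicate 1. Actn1-204 had 8.07 and 36.9, out of 516 and 349 counts for the whole gene. In Actn4, the full-length Actn4-201 took 72.8% in replicate 2 and 69.1% in replicate 1 in the first quantification, and 47.2% and 45.1% in the second. Actn4-207, a short coding transcript, took 2.88% and 3.75% in the first and 31.4% and 11.9% in the second. Actn4-204 took 8.29% and 11.7% in the first and 0.047% and 19.5% in the second. Actn4-206 took 0% and 2.97%, then 11.0% and 14.4%, and Actn4-202 took 5.97% and 3.09%, then 6.64% and 6.05%.

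Promoter sequences from RefSeq (GRCm38.p6, 250 bases before to 50 after the start) were given for 7 of the 10 genes, all but Actb, Actg2 and Actn3. They were searched on both strands for the CArG box, for TATAAA and for CANNTG, the E-box of muscle factors. The CArG box, the sequence that serum response factor binds at actin genes, was searched only as CCWWWWWWGG, W being A or T. A CArG box was present in 3 of 7, Acta1, Actc1 and Actg1, against 1.63% of 32817 promoters of the same length. TATAAA was present in 2 of 7, Acta1 and Actc1, against 13.6%, and CANNTG in 7 of 7, against 72.3%. The TATAAA began 7 bases before the start in Acta1 and 33 bases after it in Actc1. All distances here are counted from the RefSeq start. The GENCODE gene start is a different base, chr8:123894751 for Acta1 and chr2:114053548 for Actc1. The 3 promoters with a CArG box are shown 5′ to 3′ on the minus strand, with that box in capitals.
Acta1: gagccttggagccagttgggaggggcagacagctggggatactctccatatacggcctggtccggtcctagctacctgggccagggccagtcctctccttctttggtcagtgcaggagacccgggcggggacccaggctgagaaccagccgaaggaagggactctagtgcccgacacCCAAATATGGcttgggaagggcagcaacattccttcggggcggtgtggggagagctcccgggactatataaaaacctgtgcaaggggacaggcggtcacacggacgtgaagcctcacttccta
Actc1: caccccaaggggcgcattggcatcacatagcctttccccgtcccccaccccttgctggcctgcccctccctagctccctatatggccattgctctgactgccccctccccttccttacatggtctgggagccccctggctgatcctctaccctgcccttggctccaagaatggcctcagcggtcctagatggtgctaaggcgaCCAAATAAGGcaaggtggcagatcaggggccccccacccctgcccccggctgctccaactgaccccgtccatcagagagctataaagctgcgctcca
Actg1: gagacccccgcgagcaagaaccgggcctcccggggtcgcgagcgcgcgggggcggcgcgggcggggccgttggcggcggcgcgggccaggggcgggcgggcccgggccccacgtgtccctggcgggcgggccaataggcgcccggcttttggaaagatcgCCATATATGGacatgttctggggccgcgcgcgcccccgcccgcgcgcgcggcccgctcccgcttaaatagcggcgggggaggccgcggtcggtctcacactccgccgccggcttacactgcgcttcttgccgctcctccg
They lie at chr8:123894726-123895025 (Acta1), chr2:114052826-114053125 (Actc1) and chr11:120348446-120348745 (Actg1). Counted in bases before the start, the box begins at 73 in Acta1, 47 in Actc1 and 90 in Actg1. The mean levels of these 3 genes were 19395, 48.3 and 120 TPM, and their log2 ratios were -0.25, -2.21 and -0.29. The other 4, in whose windows this exact pattern was not found, were Acta2, Actn1, Actn2 and Actn4. The Acta2 window holds ccctatatgg and ccttgtttgg, which depart from the pattern by a C and a G and were not counted. Such sequences are not particular to Acta2, since the Actc1 window also holds ccctatatgg and the Acta1 window holds ccatatacgg. No search for near matches was run.

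Of the 6 genes on the list of serum response factor and its cofactors, 1 was called, against 6.05% of all genes tested. Abra, a muscle protein that binds actin and promotes activity of that factor, had 216 TPM in replicate 2 and 56.0 TPM in replicate 1, 3.72-fold higher in replicate 2. Srf itself was not called at 36.8 TPM in replicate 2 and 36.5 TPM in replicate 1. The median log2 ratio of the list was -0.21.

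Of 18 Z-disc genes, 4 were called, all higher in replicate 2, where 4.41% of all genes tested were called higher. The list median was 0.18. Csrp3, also on the slow-fibre list, had 162 TPM in replicate 2 and 5.50 TPM in replicate 1, a 28.3-fold difference. Myoz2, a calsarcin of slow and cardiac fibres that binds alpha-actinin, had 165 TPM in replicate 2 and 18.0 TPM in replicate 1 and was 8.94-fold higher. Pdlim1, which binds alpha-actinin had 70.8 and 19.1 TPM and was 3.73-fold higher, and the actin crosslinker Flnc had 292 and 96.1 TPM and was 2.81-fold higher. Neb, the nebulin that runs along the thin filament, and Ttn, titin, were the most abundant and were not called, at 2238 and 2061 TPM in replicate 2 and 2479 and 2170 TPM in replicate 1. Slow-fibre markers were higher in replicate 2 as given above, and their part in these differences was not tested.

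Calls among genes that nucleate, turn over and fold actin are set beside the 6.05% of all genes tested that were called. At that share, lists of this size would hold few calls, so the counts alone do not set these genes apart. Of 18 nucleation genes, 1 was called, Lmod2, a leiomodin that starts and lengthens thin filaments, at 182 TPM in replicate 2 and 16.1 TPM in replicate 1, 10.9-fold higher in replicate 2. Next in level was Arpc5l, an Arp2/3 subunit, which was not called at 59.6 TPM in replicate 2 and 53.8 TPM in replicate 1. The median log2 ratio of the list was 0.13, with 16 of 18 above 0. None of 20 turnover and capping genes was called, with a median of 0.11. Gsn, which severs and caps filaments, had 242 TPM in replicate 2 and 252 TPM in replicate 1, and Capzb, a subunit of the capping protein of the Z-disc, had 178 and 222 TPM. None of 17 folding and modification genes was called, with a median of -0.02. They include the chaperonin subunit Tcp1, at 76.1 TPM in replicate 2 and 73.8 TPM in replicate 1, and the prefoldin subunit Pfdn5, at 127 and 117 TPM.

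**Figure D5:**
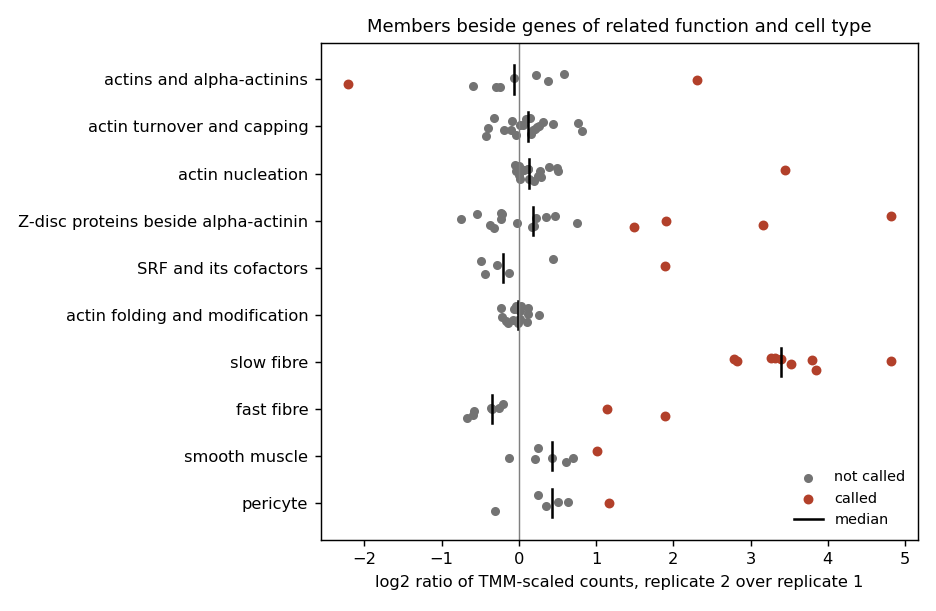
Log2 ratio of TMM-scaled counts, replicate 2 over replicate 1, for each gene tested in the actins and alpha-actinins, the 5 pathway lists and 4 marker lists, with called genes in red and the list median as a bar. The slow-fibre genes all lie at or above 2.79, and the folding list has its median at -0.02 with no called gene.

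Genes that overlap a member took few reads. Gm20388, on the strand opposite Acta1, had 588 counts in replicate 2 and 632 in replicate 1, and Capn12, opposite Actn4, had 4 and 6. Whether counting used the strand is not given in the sources used here, so reads of these pairs may not be told apart. The actin-like gene Actbl2 had 0 counts in both libraries.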

How the data were processed

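Total RNA libraries of gastrocnemius (replicates 2 and 1) were analysed from tables made by the authors on assembly mm10 with GENCODE M21, per the labels and a file list deposited for each sample. Which programs made them is not given in the sources used here. Deposited expected counts and TPM of the gene tables and first transcript tables came from a transcriptome alignment. The deposited FPKM and percent of isoform use stand beside them, per the file headers, and isoform shares were recomputed here from TPM. The deposited estimated counts and TPM of the second transcript tables came directly from the reads, per that list. The deposited posterior SDs of counts were read as given.

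Genes were matched by gene ID, and all 10 members were found. Expected counts were rounded to whole numbers. Library sizes were scaled by TMM (edgeR 4.0.16, R 4.3.3), and each of 14958 genes averaging 10 counts or more was tested by a 2-sided exact binomial test of replicate 2 against the sum, with Benjamini-Hochberg adjustment (SciPy 1.17.1). Log2 ratios add 0.5 to each scaled count, and ratios printed with an interval do not. Intervals cover counting error only, and reads without molecular identifiers are not independent molecules. edgeR's quasi-likelihood test has no contrast in 1 group. The code was tested on simulated data. Alternatives were DESeq2 1.42.0 size factors, spike-in and total-count scaling, other count filters, posterior means, the second quantification and edgeR's exact test, whose dispersion came from these same libraries. The members and lists were chosen with earlier results of these data known. Named genes are all members, their transcripts with at least 5% of the gene's TPM, the 2 most abundant and every called gene of each list, and pseudogenes of members. Other genes named were chosen after their values were seen.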

Additional observations from a re-analysis of the deposited data

How the results depend on the processing

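The calls of Actn2 and Actc1 held, with their directions, under all 8 alternatives, among them DESeq2 size factors, posterior mean counts, the second quantification and edgeR's exact test. The number of genes called overall was 905, against 1196 with spike-in scaling, 1011 with no count filter, 367 with a mean count of at least 100 and 272 by edgeR's exact test. It was 884 to 939 under the other 4. Spike-in scaling moved every log2 ratio by 0.22. With it the ratio of Actb changed sign, to 0.16, and the cause is that shift. Of the other 71 ratios recomputed for members, none changed direction or its side of the threshold. The 6 called pathway genes became 7 with spike-in scaling and 5 by edgeR's exact test. The mean Acta1 share of the actins was 98.3% in the TPM of the second quantification and 97.4% in expected counts, beyond the SD between libraries, and the cause was not tested. Without replicate 2 or replicate 1 it was 97.7% to 97.8%, and the Actn3 share was 97.0% without replicate 2 and 83.0% without replicate 1. Mean TPM moved by more than 1 SD for 7 of 10 members in the second quantification. No paired analysis was possible because the series has 1 group. Depth limits Actg2, and the transcript shares of Actn1.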
